A study of Mus musculus with 16 samples.

Results

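Extra-embryonic (ExE) ectoderm cells were examined in chimeric mouse embryos profiled by single-cell RNA sequencing. The cells were those that the authors' transfer of labels from a gastrulation atlas named ExE ectoderm, that passed the authors' filter, and that were not called doublets. WT-sorted cells holding a tdTomato transcript were left out. The rule took 292 of 37841 analysed cells, from a deposited matrix of 41832. It would have taken 293 had WT-sorted cells with tdTomato been kept. The chimeras came from Stat3 null embryonic stem cells (ESCs) with a tdTomato reporter, placed in wild-type (WT) CD1 blastocysts. Embryos were taken on embryonic days 7.5, 8.5 and 9.5 (E7.5 to E9.5), dissociated and sorted into tdTomato-positive donor cells (Stat3 null) and tdTomato-negative host cells (WT). There were 16 droplet libraries, with 2 null and 2 WT libraries at each of E7.5 and E8.5, and 4 and 4 at E9.5. Libraries are named A to D within a stage and genotype, the letters being names only, since the library names in the deposited table of cells match no sample label. The submitters pooled several embryos per tube at E7.5 and E8.5 and processed 2 embryos singly at E9.5, so with 4 libraries of each genotype some E9.5 libraries share an embryo. At E7.5 the embryos had been classed as large or small, and the files do not show which library holds which. All cells, host and donor, developed in chimeras, and no unmanipulated embryo was sequenced.

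ExE ectoderm is the part of the trophoblast lineage that borders the epiblast after implantation. It holds the trophoblast stem cells of the embryo, kept as such by FGF from the epiblast, and it sends BMP4 back to the epiblast and releases the convertases that process Nodal. It gives rise to the chorion on its epiblast side and to the ectoplacental cone, the source of spongiotrophoblast and trophoblast giant cells, on the other. Its genome is less methylated than that of the epiblast, and several imprinted genes act chiefly in this lineage. Injected ESCs seldom enter it.

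ExE ectoderm cells were found almost exclusively among E7.5 host cells. They numbered 114 of 723 cells in E7.5 WT A, or 15.8% (exact binomial 95% interval 13.2% to 18.6%). In E7.5 WT B they numbered 167 of 1783 cells, or 9.37% (8.05% to 10.8%). The interval of each library excluded the share of the other. The null libraries of that stage held 2 of 2172 cells (null A, 0.0921%, 0.0112% to 0.332%) and 0 of 360 cells (null B), which allows a share of up to 0.833%. No ExE ectoderm cell was labelled among 11348 cells at E8.5, which allows up to 0.0264%. At E9.5 there were 9 of 3080 cells in WT A (0.292%, 0.134% to 0.554%) and 0 in the other 7 libraries. These intervals and limits cover counting error only. With 2 libraries against 2 an exact permutation test cannot reach 0.05, so the shares were not tested.

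The label rested on near-unanimous neighbours. Of the 25 nearest atlas cells, all bore the ExE ectoderm label for 112 of 114 cells in E7.5 WT A and 165 of 167 in E7.5 WT B, and the lowest scores were 0.96 and 0.88. Epiblast cells of E7.5 WT B reached a full score in 11.2% of cells, and Ectoderm cells in 25.3% (A) and 7.85% (B). The atlas stage of the ExE ectoderm cells was 7.5 for 37, 7.75 for 76 and 8.0 for 1 in WT A, and 71, 95 and 1 in WT B. All 125 Epiblast cells of WT B were placed at stage 7.5. Of Ectoderm cells 18 of 91 in WT A and 212 of 242 in WT B were placed there, so the Ectoderm of WT A was mapped later than that of WT B.

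Over all libraries the median cell held 18205 to 57791.5 UMIs (unique molecular identifiers, each counting 1 transcript molecule), and library totals ran from 20682659 to 138613245 UMIs. ExE ectoderm cells were deep, with medians of 44205 UMIs in WT A and 34184 in WT B, against 32549 and 30688.5 in Ectoderm and 29263 in Epiblast of WT B. Thinned to 10000 UMIs, the median ExE ectoderm cell showed 3217.5 and 3182 genes and the median Ectoderm cell 3220 and 3144. The mitochondrial share was 2.04% and 1.72% in ExE ectoderm, 1.92% and 1.25% in Ectoderm and 1.39% in Epiblast of WT B. Cell barcodes were rarely shared between libraries (488 of 37351 distinct barcodes), and 1 E7.5 WT ExE ectoderm barcode recurred, in a cell with another label. Levels below are CPM (counts per 10⁶ UMIs) of the summed cells of a library. The Epiblast sum of WT A rests on 9 cells and is used only inside counts, so the other sums quoted beside ExE ectoderm are Ectoderm of both libraries and Epiblast of WT B.

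The markers Elf5, Rhox5 and Tfap2c bore out the label. Elf5, the ETS factor that maintains trophoblast stem cells, stood at 226 CPM in ExE ectoderm of WT A and 262 CPM in WT B. The next label held 2.62 CPM (Intermediate mesoderm, WT A) and 3.68 CPM (Blood progenitors, WT B). Rhox5, an X-linked homeobox gene, reached 1615 and 1605 CPM. Its next labels were endodermal, with 887 CPM in Visceral endoderm of WT A and 993 CPM in ExE endoderm of WT B, so Rhox5 marked extra-embryonic tissue more widely. Tfap2c, the AP-2 gamma factor of trophoblast and surface ectoderm, stood at 154 and 119.8 CPM, and Non-neural ectoderm followed at 24.7 and 33.6 CPM. Each marker was highest in ExE ectoderm among 11 labels in WT A and 18 in WT B. Since the label was given from the cells' own expression, these levels describe it and are no test.

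**Figure D1:**
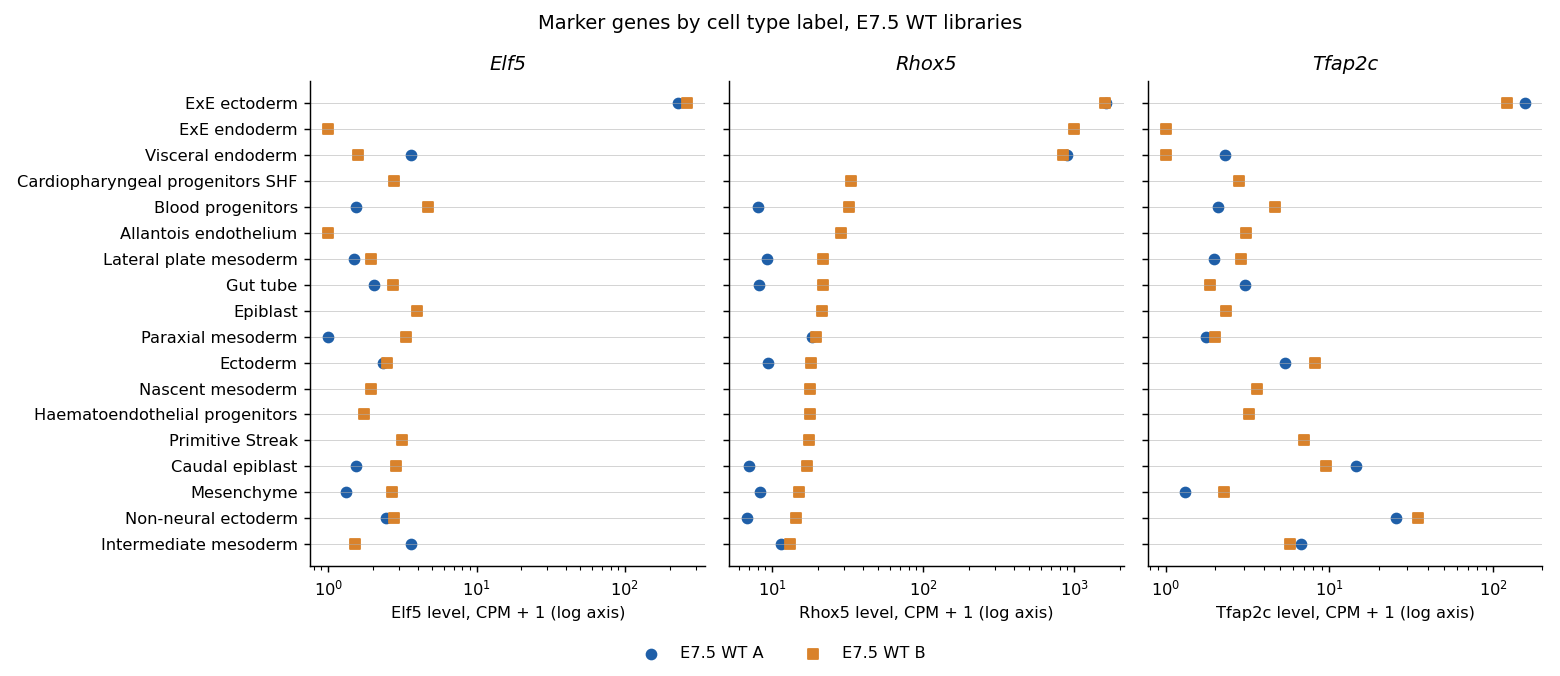
Level of Elf5, Rhox5 and Tfap2c (CPM + 1, log axis) in every label with more than 15 cells of E7.5 WT A (circles) and WT B (squares), 1 point per label and library. ExE ectoderm, in the top row, holds the highest point in all panels, while ExE endoderm and Visceral endoderm lie near it for Rhox5 only.

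Detection in single cells followed the same order. With every cell thinned to 10000 UMIs, Elf5 was seen in 81.6% and 89.8% of ExE ectoderm cells (WT A and B), in 0 of 91 and 1.24% of Ectoderm cells, and in 4.00% of Epiblast cells of WT B. Rhox5 was seen in all ExE ectoderm cells of both libraries, but also in 9.89% and 15.3% of Ectoderm cells. At full depth ExE ectoderm, ExE endoderm and Visceral endoderm were set aside. Rhox5 then lay between 5.80 and 17.4 CPM in the other 9 labels of WT A, and between 12.1 and 32.3 CPM in 15 of WT B. Its level in null Ectoderm was 0.251 and 0.464 CPM. Over 22 labels of null A it ran from 0.251 to 22.8 CPM (median 1.72), and over 11 of null B from 0 to 2.94 CPM. The 15 genes that led ExE ectoderm (named further on) stood in Ectoderm of the same library at a median of 0.980% (WT A, 0 to 1.78%) and 1.06% (WT B, 0.439% to 2.53%) of their ExE ectoderm level. The part of free RNA in these low levels was not tested.

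Promoters of the leading markers are printed because the regulators named below include AP-2 and TEAD factors, whose motifs can be read in them. They are RefSeq starts on GRCm38.p6, from 250 bases before to 50 after the start, 5′ to 3′ on the gene's strand. Capitals mark GCCNNNGGC (the AP-2 motif) or CATTCC (the TEAD motif), searched on both strands, where CATTCC also reads as GGAATG. The Elf5 starts lie at chr2:103411848-103412147 and chr2:103423818-103424117 (plus strand). Rhox5 lies at chrX:37754358-37754657 (plus, a RefSeq start far upstream of the GENCODE start at 37804842). Morc4, placed first by the least favourable of the ratios to Epiblast and Ectoderm ranked further on, lies at chrX:139871605-139871904 (minus).
Elf5, first start: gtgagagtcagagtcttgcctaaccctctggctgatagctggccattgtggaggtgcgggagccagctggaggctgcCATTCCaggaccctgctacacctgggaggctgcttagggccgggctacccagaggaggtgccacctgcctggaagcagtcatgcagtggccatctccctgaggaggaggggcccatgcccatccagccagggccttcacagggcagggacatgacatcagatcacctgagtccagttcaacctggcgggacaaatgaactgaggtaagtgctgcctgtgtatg
Elf5, second start: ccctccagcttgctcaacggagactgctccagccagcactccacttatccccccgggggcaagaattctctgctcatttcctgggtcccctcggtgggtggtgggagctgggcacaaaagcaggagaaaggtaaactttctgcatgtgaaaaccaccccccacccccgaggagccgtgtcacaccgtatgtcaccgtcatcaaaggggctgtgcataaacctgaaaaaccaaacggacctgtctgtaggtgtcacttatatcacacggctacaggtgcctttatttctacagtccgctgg
Rhox5: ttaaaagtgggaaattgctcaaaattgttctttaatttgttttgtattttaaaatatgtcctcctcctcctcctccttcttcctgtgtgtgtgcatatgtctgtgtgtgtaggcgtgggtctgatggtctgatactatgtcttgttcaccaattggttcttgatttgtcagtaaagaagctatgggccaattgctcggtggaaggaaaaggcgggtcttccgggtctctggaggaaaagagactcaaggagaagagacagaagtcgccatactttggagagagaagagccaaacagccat
Morc4: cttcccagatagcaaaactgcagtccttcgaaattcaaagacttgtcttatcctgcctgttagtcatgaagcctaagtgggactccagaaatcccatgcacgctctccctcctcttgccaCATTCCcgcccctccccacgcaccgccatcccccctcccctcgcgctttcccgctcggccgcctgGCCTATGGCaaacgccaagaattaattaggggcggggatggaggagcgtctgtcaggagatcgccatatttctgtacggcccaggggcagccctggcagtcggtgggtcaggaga

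The first Elf5 window holds 3 CpG pairs, the second 10, Rhox5 5 and Morc4 16, where the median over 32851 promoters of this length is 7. The TEAD letters lie 173 bases before the first Elf5 start and 130 before that of Morc4, which also holds the AP-2 letters 65 bases before its start. GCCNNNGGC occurs in 16.6% and CATTCC in 14.7% of all these promoters. Of the 15 leading genes 10 had an entry, and each motif occurred at the first start of 4 of them. A match is only a stretch of letters, and none says nothing of a factor. Tfap2c had no entry.

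Most regulators of trophoblast stem cells and chorion were higher in ExE ectoderm. A list gene is counted as higher or lower when its level differed more than 2-fold, the same way, from Epiblast and Ectoderm in both WT libraries (all 4 ratios, with 1 CPM added to each level). Among 10409 genes reaching 5 CPM, 6.72% were higher and 8.83% lower by this rule. Of 16 regulators 11 were higher and none lower. Since most of these genes could enter the label transfer, the counts of this and the following lists describe the label.

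Eomes, the T-box factor required for trophoblast, stood at 153 CPM in ExE ectoderm of WT A and 186 in WT B, against 1.68 and 12.2 in Ectoderm and 30.5 in Epiblast of WT B. Cdx2, the caudal homeobox factor of trophectoderm, was at 116 and 104 CPM against 13.1, 18.6 and 5.88. Esrrb, an orphan nuclear receptor that supports stem cell renewal, was at 33.8 and 49.8 CPM and at most 0.535 CPM in the other sums. Further labels were not compared for these genes.

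Tead4, which directs the first trophoblast genes, held 52.5 and 46.4 CPM against at most 1.34. Id2, an inhibitor of basic helix-loop-helix factors, held 961 and 659 CPM against 39.6 to 105. Gata3 (31.2 and 26.3 CPM), Ets2 (58.3 and 54.0) and Sox21 (69.3 and 68.3) were higher too, and Gata2 was the least even of the list, at 34.6 and 10.3 CPM. Sox2, shared by trophoblast stem cells and epiblast, did not separate the labels. It read 125 and 147 CPM in ExE ectoderm, 277 and 139 in Ectoderm and 199 in Epiblast. Lin28a, Sall4 and Zfp281 likewise were in neither count. Tfap2a, the AP-2 factor of surface ectoderm, was low, at 2.17 and 1.75 CPM against 17.4 and 16.3 in Ectoderm.

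**Figure D2:**
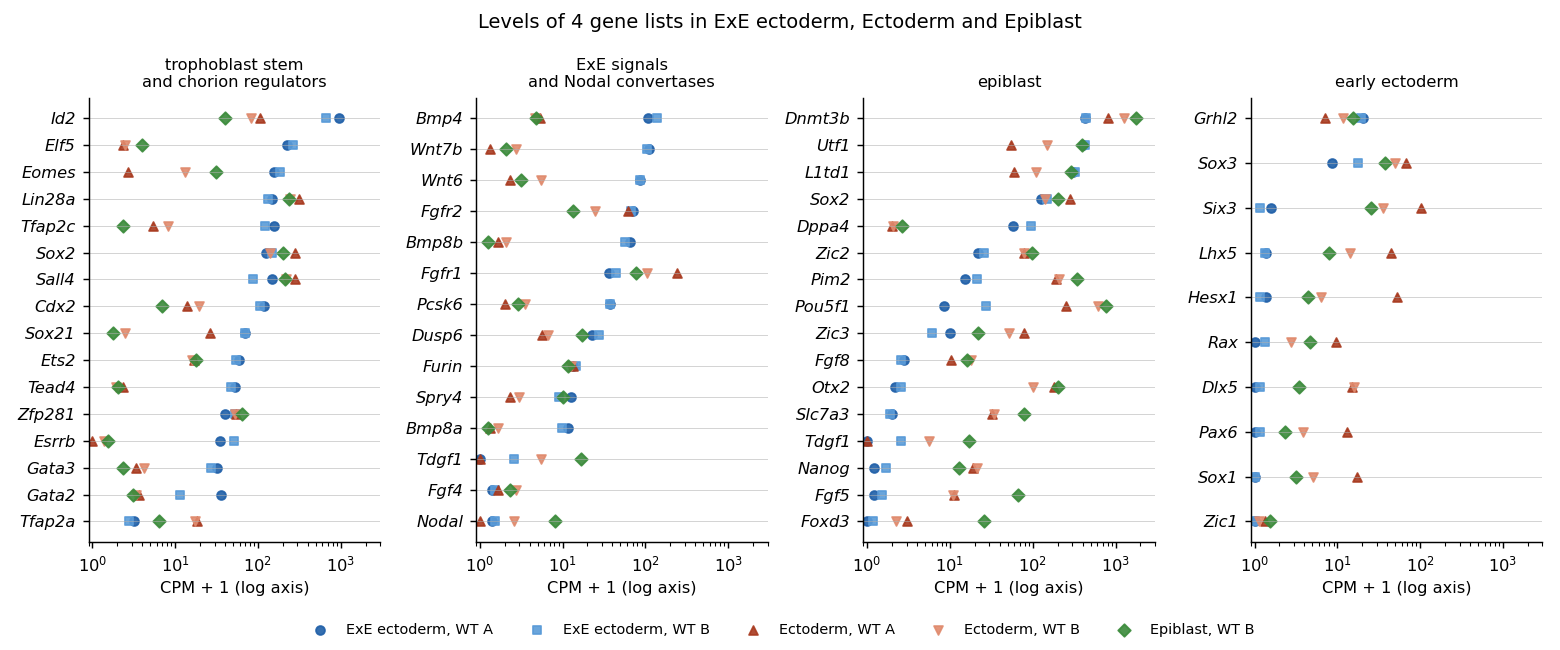
Levels (CPM + 1, log axis) of 4 gene lists in ExE ectoderm, Ectoderm and Epiblast of the E7.5 WT libraries, 1 point per label and library, genes ordered by their ExE ectoderm level. Both blue points lie right of the others for Elf5, Eomes, Cdx2, Bmp4 and Wnt7b, and left of them for Pou5f1, Otx2 and Six3.

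The signals of ExE ectoderm were high in both libraries. Of 13 genes of signals and convertases reaching 5 CPM, 6 were higher and none lower, beside 6.72% and 8.83% of all genes. Bmp4, the ligand sent to the proximal epiblast, stood at 107 and 136 CPM against 3.61 to 4.36 in the other sums, and its relatives Bmp8b (64.0 and 55.4 CPM) and Bmp8a (10.7 and 8.93 CPM) were higher as well. Wnt7b, needed later for chorion and allantois to fuse, was at 110.4 and 105 CPM against at most 1.74. Wnt6 was at 86.1 and 84.1 CPM against at most 4.55.

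Only 1 of the 2 Nodal convertases set the label apart. Pcsk6 (PACE4) stood at 36.1 and 36.3 CPM against 1.01 to 2.54. Furin, by contrast, read 12.4 and 13.7 CPM in ExE ectoderm and 10.7 to 12.4 CPM elsewhere. On the side of the receiving receptors, Fgfr2, through which epiblast FGF reaches trophoblast, was at 69.9 and 65.7 CPM. This was near the Ectoderm of WT A at 60.7, and above Ectoderm and Epiblast of WT B at 23.7 and 12.3. Fgfr1 was at 35.4 and 43.4 CPM against 239, 104 and 75.6. Nodal and its co-receptor gene Tdgf1, which are epiblast genes, were at most 1.58 CPM in ExE ectoderm.

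Of the genes of ectoplacental cone and later trophoblast some were high, and several had no UMI. Of 25 such genes in the matrix 13 reached 5 CPM, and 8 had no UMI in either library. Higher were 9 and lower none, beside 6.72% and 8.83% of all genes. Peg10, an imprinted gene of retrotransposon origin needed for the placenta, held 298 and 200.1 CPM against 7.22 to 8.97. Cited1 (131 and 111 CPM) and Plet1 (42.9 and 46.6 CPM), a trophoblast progenitor gene, were higher as well.

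The spongiotrophoblast genes Tpbpa and Tpbpb, the syncytin genes Syna and Synb and the lactogen genes Prl3d1, Prl2c2 and Prl3b1 had no UMI in either sum, of 5062734 and 5708112 UMIs. Ctsq, a cathepsin of later giant cells, had none either. Other late genes were found at low counts, among them Plac1 (98 and 37 UMIs), Krt7 (66 and 65), Ovol2 (50 and 39) and the labyrinth factor Gcm1 (15 and 5). Ascl2, required for spongiotrophoblast, stood at 109 CPM in WT A and 39.8 CPM in WT B. Hand1, which promotes giant cells, stood at 268 and 109.8 CPM, and Phlda2, an imprinted brake on placental growth, at 1384 and 615 CPM. These 3 genes were above Ectoderm and Epiblast in both libraries, yet more than 2-fold apart between the libraries.

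Of the Rhox cluster, homeobox genes on the X chromosome, 3 members reached 5 CPM and all 3 were higher, beside 6.72% of all genes. Beside Rhox5, Rhox6 stood at 69.3 and 48.2 CPM and Rhox9 at 35.2 and 30.5 CPM, where no other sum passed 1.07 CPM. Thinned, Rhox6 was seen in 34.2% and 34.7% of the cells and Rhox9 in 28.1% and 24.6%. At full depth Rhox6 was seen in 76.3% and 71.3% and Rhox9 in 56.1% and 53.9%, so the share of positive cells depends on depth.

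Many epiblast and early ectoderm genes were lower. Of 16 epiblast genes 8 were lower and 1 higher, and of 9 early ectoderm genes 6 were lower and none higher. Among all genes 8.83% were lower and 6.72% higher. Pou5f1, the pluripotency factor OCT4, read 7.51 and 26.3 CPM against 250.2 and 619 in Ectoderm and 764 in Epiblast. Otx2, a factor of primed epiblast and forebrain, read 1.19 and 1.58 CPM against 98.4 to 203. The eye and forebrain factor Six3 read 0.593 and 0.175 CPM against 24.6 to 102.

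The other epiblast genes were Dppa4, which was higher, and Utf1, L1td1, Sox2, Dnmt3b, Fgf8, Tdgf1 and Foxd3, which fell in neither count. Utf1, a chromatin factor of pluripotent cells, was at 405 and 427 CPM in ExE ectoderm, close to 396 CPM in Epiblast of WT B and above the 54.0 and 147 CPM of Ectoderm. L1td1, an RNA-binding protein of pluripotent cells, followed the same order, with 305 and 326 CPM, 292 and then 58.7 and 109. Dppa4, a chromatin protein of early embryos, was higher, at 56.5 and 95.1 CPM against at most 1.60. Grhl2, an epithelial factor, at 19.2 and 18.4 CPM, was the early ectoderm gene highest in ExE ectoderm.

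Ranking all genes by the least favourable of the 4 ratios put Morc4 first. Morc4, a GHKL ATPase gene on the X chromosome, stood at 834 and 1068 CPM against 7.38 and 10.6 in Ectoderm and 7.22 in Epiblast of WT B. It was followed by Rhox5, Elf5, Tex19.1, Sfmbt2, Htra1, Tinagl1, Zfp42, Perp, Esrrb, C77370, Wnt7b, Gjb5, Dppa4 and Rhox9. Tex19.1, which restrains retrotransposons in germ cells and placenta, was at 186 and 145 CPM against at most 2.01. Zfp42, the pluripotency gene Rex1, was at 119.7 and 136 CPM against at most 2.01, so a gene known from ESCs marked ExE ectoderm rather than epiblast here. The secreted protease Htra1 was at 166 and 187 CPM, the desmosomal p63 target Perp at 171 and 183 CPM, and neither passed 4.55 CPM in the other sums.

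Those at the other end included Otx2, Rragd, Mcf2, Map7d3, Lpar4, Stmn2, Sfrp1, Ptn, Sox11, Pou5f1, Jph4, Car14, Six3 and Ccnd1. Sfrp1, a secreted WNT inhibitor, read 3.56 and 4.03 CPM in ExE ectoderm against 119.5 to 309.9 in the other sums. Sox11 read 6.72 and 9.64 CPM against 253 to 432. Cyclin D1 (Ccnd1) read 6.12 and 5.61 CPM against 152 to 169.

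The D-type cyclins were split between the labels. Ccnd3 stood at 336 and 266 CPM in ExE ectoderm against 87.2 to 93.8, whereas Ccnd2, like Ccnd1, was lower, at 6.72 and 7.01 CPM against 41.4 to 105. The inhibitor genes Cdkn1c (p57, 144 and 106 CPM against 26.7 to 47.6) and Cdkn2a (p16 and p19ARF, 89.3 and 71.5 CPM against 3.02 to 3.88) were higher. Of 23 cell cycle genes 3 were thus higher and 2 lower, beside 6.72% and 8.83% of all genes. The other 18 fell in neither count, among them Mki67 at 289 and 229 CPM against 205 to 281.

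Among 13 DNA methylation genes only Dnmt3l was higher and only Dnmt3a lower. These counts are near the shares of all genes, 6.72% and 8.83%. The cofactor gene Dnmt3l stood at 84.5 and 80.2 CPM against 1.87 to 4.28, and Dnmt3a at 13.6 and 10.2 CPM against 72.8 to 144. Dnmt3b, the main de novo enzyme after implantation, read 429.6 and 439 CPM in ExE ectoderm, 820.4 and 1248 in Ectoderm and 1760.1 in Epiblast. It was below every other sum but not by 2-fold throughout. Dnmt1 and Uhrf1, the maintenance pair, lay between 146 and 202 CPM in all of these sums.

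In the gp130-JAK-STAT list 3 of 16 genes were higher and 1 lower, beside 6.72% and 8.83% of all genes. Stat3 itself was among the higher genes. It stood at 15.2 CPM in ExE ectoderm of WT A and 8.93 in WT B, against 1.68 and 1.74 in Ectoderm and 1.60 in Epiblast of WT B. ExE ectoderm took place 2 of 11 labels for Stat3 in WT A and place 5 of 18 in WT B, where Blood progenitors were highest at 30.4 and 31.1 CPM. Thinned, a Stat3 UMI was found in 12.3% (6.88% to 19.7%) and 7.78% (4.21% to 12.9%) of ExE ectoderm cells. The kinase genes Jak1 (58.7 and 65.2 CPM against 17.8 to 26.2) and Pim1, a STAT3 target (61.8 and 73.1 CPM against 8.43 to 9.39), were the other two. Pim2 was lower, at 14.2 and 20.1 CPM against 192 to 343. Il6st, the gp130 gene, at 13.8 and 12.6 CPM, and Lifr, at 10.1 and 9.64 CPM, lay within 2-fold of at least 1 of the other sums.

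Epithelial genes went both ways. Of 18 genes of keratins, cadherins and junctions 7 were higher and 4 lower, beside 6.72% and 8.83% of all genes. Keratins 8, 18 and 19 stood at 259 and 166 CPM (Krt8), 436 and 423 CPM (Krt18) and 202 and 172 CPM (Krt19), and Krt19 did not pass 7.23 CPM in the other sums. Cldn3 (126 and 142 CPM), Cldn4 and the connexin gene Gjb5 were higher as well. Gja1, the connexin 43 gene, was lower, at 2.57 and 5.78 CPM against 132 to 192, as were Vim, Cdh2 and Ocln. Cdh1 and Epcam were in neither count. Vim was at 4.35 and 6.83 CPM against 38.5 to 46.8.

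Transport genes went both ways. Among 17 transport genes Folr1, a folate receptor (53.1 and 65.7 CPM against 1.87 to 3.21), the iron exporter Slc40a1 and the imprinted amino acid transporter Slc38a4 were higher, and Slc7a3 and the endocytic receptor Lrp2 lower. Among 17 glycolytic genes only Pfkp was higher (80.4 and 83.4 CPM against 20.8 to 24.4) and only Ldhb lower (57.3 and 41.9 CPM against 128 to 185). By this rule 6.72% of all genes were higher and 8.83% lower, so the glycolytic counts are near those of all genes. The summed level of the glycolytic list was 14467 and 14192 CPM in ExE ectoderm against 14898 and 15834 CPM in Ectoderm.

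Markers of other cells the sort could hold were counted in the same way, beside 6.72% higher and 8.83% lower of all genes. None of 10 genes of maternal decidua and immune cells reached 5 CPM, 6 of them had no UMI in either library, and the list summed to 3.95 and 5.26 CPM. Visceral and ExE endoderm genes summed to 38.5 and 96.7 CPM, against 61.7 and 99.8 CPM in Ectoderm, and only Amn was higher. Rlim, the X-linked activator of Xist, was the 1 gene higher of 5 in the X inactivation centre list, at 107 and 86.2 CPM against 39.5 to 48.3. Of the blood list only Gata1 reached 5 CPM and was higher, at 14.8 and 11.0 CPM. Of 7 parietal endoderm genes Col4a1 was lower and none higher. Among streak and mesoderm genes Eomes and Hand1 were higher, both also trophoblast genes, and T read 14.6 and 24.9 CPM against 4.02 to 13.5.

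Tests are given only for the kinds of genes that the label transfer left out. The label transfer excluded genes with Gm or Rik names, imprinted genes, Xist with its antisense Tsix, genes on the Y chromosome, the reporter, and genes for haemoglobin, ribosomal proteins and mitochondrial transcripts. The study's own imprinted list was not used here, so a textbook list stands in for it, and some of its genes may have entered the transfer. UMIs were summed per library and label, and edgeR's quasi-likelihood test was run on 12256 genes with label and library as terms. The fit had 5 sums and 1 residual degree of freedom, because the 9 Epiblast cells of WT A were too few for a sum. Epiblast thus entered as the single sum of WT B, which is assumed to vary like the other sums, and no SE, p or call against Epiblast rests on replicates of that label. Both WT libraries are pools of chimeras, and nothing else replicates a label in this fit. The median prior degrees of freedom were infinite, so for most genes the SE and p rest on a variance pooled over all genes rather than on the spread of that gene between the 2 libraries. A gene is called at a Benjamini-Hochberg adjusted p under 0.05 over all genes and an absolute log2 fold change over 1.

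Against Epiblast, 180 of 817 excluded genes were called, 75 higher and 105 lower in ExE ectoderm, or 22.0%. Of all genes 23.8% were called, 10.2% higher and 13.6% lower. With the 9-cell Epiblast sum of WT A kept, 173 of 711 were called (24.3%, beside 25.8% of all genes). Against Ectoderm it was 228, 93 higher and 135 lower, or 27.9%, beside 29.0% of all genes (11.8% higher, 17.2% lower). The comparisons share the ExE ectoderm sums. The same way in both were 61 higher and 93 lower genes, and over all genes this held for 21.0% (8.46% higher, 12.5% lower). In this fit the excluded genes were called about as often as genes in general. Leaving out WT B lowered the counts to 83 of 663 against Epiblast (12.5%, beside 16.1% of all genes) and 137 of 663 against Ectoderm (20.7%, beside 24.3%). By DESeq2 7.10% and 11.6% were called, beside 9.73% and 16.4% of all genes, and without the filter on low counts 5.95% and 8.76%, beside 15.4% and 3688 of 18423 genes, so under these 3 alternatives the share was below that of all genes.

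Of 54 imprinted genes fitted, 29 (53.7%) were called against each label, beside 23.8% (Epiblast) and 29.0% (Ectoderm) of all genes. In each case 14 were higher and 15 lower. Of these, 13 were higher in both comparisons and 14 lower in both, so the median log2 fold change stayed near 0 (-0.04 against Epiblast, -0.08 against Ectoderm, with -0.004 and -0.02 over all genes). Genes of this list that entered the transfer would have helped to set the label, so these tests may not all be independent of it.

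Sfmbt2, a Polycomb gene expressed from the paternal allele in trophoblast, changed most. It stood at 238 and 229.7 CPM against 2.35 and 3.48 in Ectoderm and 1.34 in Epiblast of WT B. Its log2 fold change was 6.25 (SE 0.20, edgeR adjusted p = 2.2e-199) over Ectoderm and 7.46 (SE 0.34, edgeR adjusted p = 1.0e-102) over the 1 Epiblast sum. Peg10 rose by 4.79 (SE 0.17) and 4.90 (SE 0.26) on the same scale.

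H19, the maternally expressed non-coding RNA, stood at 963 and 905 CPM against 38.6, 44.4 and 48.4, a log2 fold change of 4.51 over Ectoderm and 4.32 over Epiblast. Igf2, its paternally expressed neighbour and a growth factor gene, rose with it, at 139 and 116 CPM against 9.10 to 17.4, a log2 fold change of 3.40 and 3.45. The list of genes higher in both was completed by Ascl2, Gab1, Airn, Pon2, Peg12, Smoc1, Slc38a4, Cdkn1c and Jade1. Of them Airn is the non-coding RNA that silences Igf2r. Igf2r itself was not called, with log2 fold changes of 0.85 over Ectoderm and 0.92 over Epiblast. In both comparisons Igf2r missed the call through the fold threshold (edgeR adjusted p = 2.2e-06 against Ectoderm). Airn overlaps part of Igf2r on the other strand, and the library type marks strand.

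Magel2 and Zdbf2, both paternally expressed, were called lower in both comparisons. Zdbf2 stood at 3.16 and 4.91 CPM against 60.9 to 91.6, and its log2 fold change was -4.34 (SE 0.21) against Ectoderm and -3.88 (SE 0.26) against Epiblast. The neighbours Magel2, Ndn and Snrpn of the Prader-Willi region were all lower. Peg12, which lies near Magel2 on chromosome 7, went the other way, at 1.85 over Ectoderm and 2.33 over Epiblast. Ube3a, on the same chromosome, was not called. Magel2 rests on 1 ExE ectoderm UMI, against 41 in Ectoderm and 27 in Epiblast of WT B, a ratio of 42.2 (counting interval 7.17 to 1709) and 77.7 (12.8 to 3182). Ndn changed by -2.73 and -2.64 and Snrpn by -2.01 and -2.43. The growth regulator Gnas (137 and 125 CPM against 467 to 573), its antisense RNA Nespas, the neuronal gene Nnat, Meg3, Mirg, Usp29, Impact, Cd81, Atp10a and Pde4d were lower in both as well. Fits that left out a WT library also held Ectoderm and Epiblast of the null libraries, and without WT B every Epiblast cell fitted was null (18 and 25 cells), so the missing library and the genotype cannot be told apart there. Without WT B the calls of Airn and Peg12 were lost in both comparisons and those of Smoc1 (0.05) and Cd81 (-0.82) against Epiblast. DESeq2 did not call Airn, Peg12 or Atp10a in either comparison, Smoc1 and Pde4d against Ectoderm or Usp29 and Impact against Epiblast, and it gave Pde4d no adjusted p against Epiblast. With thinned cells Atp10a and Usp29 were called in neither comparison, Magel2 not against Ectoderm and Impact not against Epiblast. Without the replicate block Ascl2 was called in neither and Pde4d not against Epiblast. Igf2r was called against Epiblast without WT A (1.03) and without WT B (1.08). It was also called there with the null libraries added (1.01) and without the replicate block (1.01). With thinned cells Igf2r was called in both, at 1.26 over Ectoderm and 1.15 over Epiblast. Meg3 only just passed, at 101 and 164 CPM against 549.6 to 715 (edgeR adjusted p = 0.0204 and 0.0472).

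Phlda2 had log2 fold changes of 3.14 (SE 1.01) and 3.33 (SE 1.44) but was not called, with edgeR adjusted p = 0.281 against Ectoderm and 0.405 against Epiblast. Its 2 ExE ectoderm levels, 1384 and 615 CPM, both exceeded the highest other value, 132 CPM. Without WT A it was called, at 2.20 against Ectoderm and 2.91 against Epiblast, and without WT B it was called in both, at 4.16 against Ectoderm. It was also called by DESeq2 (adjusted p = 0.00137 against Ectoderm and 0.0253 against Epiblast), with thinned cells, with the null libraries added and with WT-sorted cells that hold tdTomato kept, so its missing call depends on the setting. Sgce and Calcr were called against Epiblast only, Slc22a18 and Nap1l5 against Ectoderm only, and the difference between the comparisons was not tested. The call of Slc22a18 was lost without either library and by DESeq2, that of Sgce without WT B, by DESeq2 and with thinned cells, that of Nap1l5 by DESeq2, and Calcr was called against Ectoderm too without WT A. The other genes called in neither included Peg3, Grb10, Kcnq1ot1, Ube3a and Mest. Without WT B, with Epiblast from null cells alone, Peg3 (1.20) and Mest (-1.03) were called against Epiblast.

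**Figure D3:**
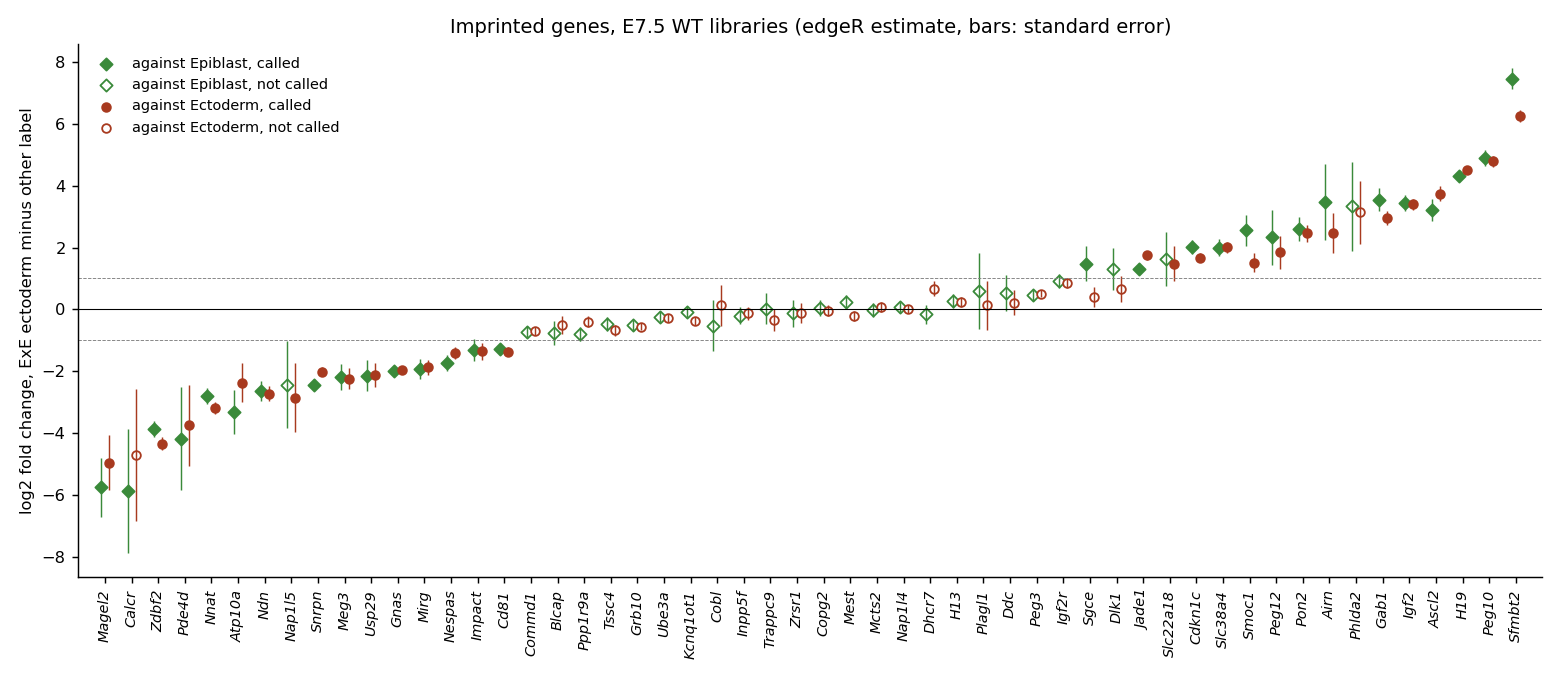
The log2 fold change of 54 imprinted genes in ExE ectoderm against Epiblast (diamonds) and Ectoderm (circles), ordered by their mean, with standard errors and dashed lines at the call threshold of 1 in either direction. Filled points passed the edgeR call; 13 genes on the right and 14 on the left are filled in both comparisons, and Phlda2, with wide bars, is open.

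The highest predicted genes, chosen by their fold changes, were at or near 0 in Epiblast and Ectoderm, and further labels were not compared. The gene 2410141K09Rik (chromosome 13, 66418114 to 66441118, GRCm38) had 146 UMIs in each ExE ectoderm sum, 28.8 and 25.6 CPM. It had none in Epiblast of WT B, a level at least 33.8-fold higher against the 3 UMIs that a count of 0 allows over the group. Ectoderm held 3 UMIs, a ratio of 94.5 (counting interval 32.0 to 461). Gm9, on the X chromosome 2763 bases from Rhox1, stood at 48.2 and 50.5 CPM, with 1 UMI in Epiblast and 2 in Ectoderm. The X-linked 3830417A13Rik stood at 24.1 and 19.3 CPM with 1 UMI each in Epiblast and Ectoderm. Without WT B, with Epiblast from null cells alone, none of these 3 was called against Epiblast (edgeR adjusted p = 1, 1 and 0.0765).

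The remaining genes of the 10 highest were Sfmbt2, 9030617O03Rik, Gm2381, 4930444M15Rik, Gm4779, Gm14124 and Gm6871. Of these, 9030617O03Rik and Gm4779 rest on 25 and 18 ExE ectoderm UMIs. DESeq2 called neither against Ectoderm and gave no adjusted p against Epiblast, and Gm4779 was not called against Epiblast without the filter or the replicate block. Gm2381, 4930444M15Rik and Gm14124 were not called against Epiblast by DESeq2, and Gm14124 and Gm6871 not with thinned cells. Without WT B the calls of Gm2381, 4930444M15Rik, Gm14124 and Gm6871 against Epiblast were lost, and that of 4930444M15Rik against Ectoderm. The 10 lowest were Gm45287, 4930426D05Rik, Gm11713, Gm12688, Gm9918, Gm27239, Gm3411, Gm10848, 5330434G04Rik and Gm14964. The first 8 had no UMI in ExE ectoderm and the last 2 had 1. Gm12688 lies 1316 bases from Foxd3, an epiblast factor gene, and was at least 36.5-fold lower than in Epiblast (38 UMIs there) and at least 4.47-fold lower than in Ectoderm. Gm27239 lies 685 bases from Sall3 and was at least 13.4-fold lower than in Ectoderm and at least 3.84-fold lower than in Epiblast. Gm12688, 4930426D05Rik and Gm11713 were called in neither comparison without WT B. DESeq2 did not call Gm12688, Gm9918, Gm3411 and Gm10848 against Ectoderm, and it gave the last 3 no adjusted p against Epiblast. With thinned cells Gm14964 was not called against Epiblast, and Gm27239 was not called against Epiblast without WT A or by DESeq2.

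No mitochondrial gene of 13 and no haemoglobin gene of 3 was called in either comparison by edgeR or by DESeq2. Among all genes edgeR called 23.8% against Epiblast and 29.0% against Ectoderm. At an unadjusted p under 0.05 there were 4 mitochondrial genes and 1 haemoglobin gene against Epiblast, and 7 and 0 against Ectoderm. At an adjusted p under 0.05 there were 3 mitochondrial genes against Epiblast and 7 against Ectoderm, which missed the call through the fold threshold, and no haemoglobin gene. The largest mitochondrial difference was that of mt-Nd1, with log2 fold changes of 0.51 and 0.53, under the threshold. Of 102 genes whose names begin like ribosomal protein genes, 5 (4.90%) were called in each comparison, beside 23.8% and 29.0% of all genes. The 7 names involved were the paralogs Rpl39l and Rpl3l and the kinase genes Rps6ka1, Rps6ka2, Rps6ka3, Rps6ka4 and Rps6kl1. No core ribosomal protein gene was thus among them. Rps6ka1, the RSK1 kinase that acts below ERK, rose to 111 and 93.7 CPM from 33.9 and 31.7 CPM in Ectoderm.

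Xist was not called, with 235 and 139 CPM in ExE ectoderm and 230.1 and 86.2 in Ectoderm. The Y-linked genes Eif2s3y, Kdm5d and Uty were lower in both comparisons, with log2 fold changes of -1.36 and -1.26, -1.93 and -2.11, and -1.55 and -1.72 against Ectoderm and Epiblast. Ddx3y was not called. Beside them stands the make-up of the pools. Cells with Xist and no Y-linked UMI were 57 of 114 and 66 of 167 in ExE ectoderm, 34 of 91 and 48 of 242 in Ectoderm and 33 of 125 in Epiblast of WT B. How far the mix of female and male cells accounts for the Y-linked values was not tested.

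The ExE ectoderm of the WT libraries was more than 2-fold apart in few of the 202 listed genes that reached 5 CPM in either library (1 CPM added to each level), 5 being higher in WT A and 7 in WT B. Ascl2, Hand1, Phlda2, Gata2 and Plac1 were higher in WT A. For Plac1 this rests on 2 cells, which hold 96 of its 98 UMIs in WT A. Without the cells of 10 or more Plac1 UMIs, WT A kept 2 and WT B 15, so the direction turned. Higher in WT B were Pou5f1, Sox3, Kdr, Mesp1 and the endoderm genes Ttr, Spink1 and Apoa1. Spink1 read 11.9 and 35.4 CPM in ExE ectoderm of WT A and WT B, beside 19.1 and 36.7 CPM in their Ectoderm, and Ttr 3.56 and 13.3 CPM beside 6.37 and 15.5 CPM. The part of free RNA in these values was not tested. Thinned, Ascl2 was seen in 47.4% (37.9% to 56.9%) of cells of WT A and 21.0% (15.1% to 27.9%) of WT B, and Hand1 in 85.1% and 52.7%. Pou5f1 was seen in 6.14% and 22.8%. Elf5, Cdx2 and Eomes were less than 2-fold apart. WT A also had the larger share of cells at atlas stage 7.75, 66.7% against 56.9%. With 1 library on each side these differences were not tested, and the size class or age of the embryos and the library cannot be told apart.

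**Figure D4:**
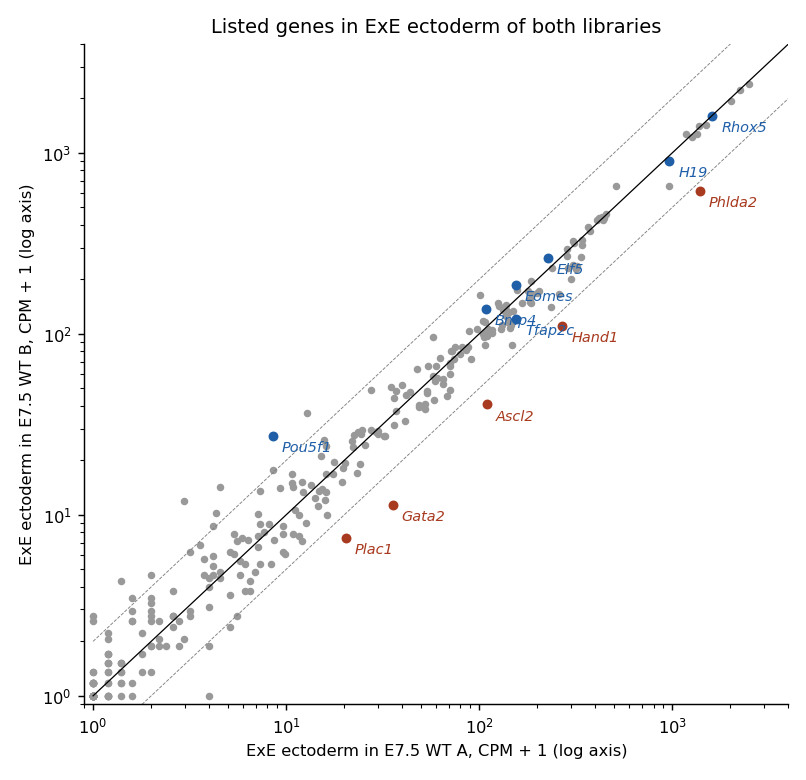
Level of every listed gene (CPM + 1, log axes) in ExE ectoderm of E7.5 WT A against WT B, 1 point per gene, with the line of equality and dashed lines at 2-fold. Most points lie between the dashed lines; Phlda2, Hand1, Ascl2, Gata2 and Plac1 (red) lie below them, Plac1 through 2 cells of WT A, and Pou5f1 lies above with other genes at low levels.

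The cells also varied among themselves. Over 281 cells thinned to 10000 UMIs and 7096 genes, the second principal component (1.00% of the variance) had Pou3f1, Morc4, Sox2, Bmp4 and Eomes among the leading genes of one end and Phlda2, Krt8, Ascl2 and Krt18 among those of the other. Its correlation with Phlda2 was -0.56 in 114 cells of WT A and -0.56 in 167 cells of WT B. With Ascl2 it was -0.45 and -0.46, with Sox2 0.62 and 0.38, and with Bmp4 0.50 and 0.46. These cells made the component, and the genes share each cell's total, so the values only describe it, and its relation to the difference between the libraries was not tested. The first component (2.10%) set Malat1, Atrx, Peg10 and Mki67 against Gapdh and proteasome genes.

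Elf5 and Ascl2, a stem cell and an ectoplacental gene, were found in many of the same cells. Of 93 Elf5-positive cells of WT A, thinned, 45.2% held an Ascl2 UMI, against 57.1% of the 21 without Elf5. In WT B it was 20.7% of 150 cells against 23.5% of 17. At full depth Ascl2 was found in 91 of 111 Elf5-positive cells of WT A and 89 of 167 of WT B. Free RNA between cells gives such overlaps too, and Ascl2 was seen in 3.30% and 6.61% of Ectoderm cells thinned and in 9.89% and 15.3% at full depth. Thinned, Ascl2 was seen in 42.3% of Eomes-positive and 55.8% of Eomes-negative cells of WT A, and in 18.6% and 28.9% in WT B. Plac1 was found in none of the 71 Esrrb-positive cells of WT A and in 2 of 119 of WT B at full depth. Among Esrrb-negative cells it was found in 9.30% and 8.33%, which is 4 cells in each library.

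Both null-sorted ExE ectoderm cells came from null A. They held 10143 and 36479 UMIs, a full mapping score, 3 and 8 Elf5 UMIs and 9 and 54 Rhox5 UMIs. Neither had a Stat3 UMI. At full depth only 48.2% and 26.9% of ExE ectoderm cells of E7.5 WT A and WT B had any, so this absence cannot tell donor from host. The tdTomato UMIs of the null-sorted cells numbered 0 and 1, where 97.2% of singlets of that library had at least 1. Other genes set donor and host apart in these libraries. Grb10, an imprinted growth inhibitor, stood at 2.95 and 0.929 CPM in null Ectoderm and at 179 and 154 CPM in WT Ectoderm, and the null-sorted ExE ectoderm cells held 1 and 5 Grb10 UMIs, 129 CPM together. Xist stood at 1.00 and 1.39 CPM in null Ectoderm and these cells held 2 and 7 Xist UMIs. They had no Y-linked UMI. The 4 Y-linked genes summed to 46.6 and 77.5 CPM in null Ectoderm and to 85.2 and 93.2 CPM in WT Ectoderm, so donor and host libraries both held them. Whether the cells were donor cells was not tested, and no comparison of genotypes was made in ExE ectoderm.

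The 9 cells of E9.5 WT A carried the label but another set of genes. They held 10520 to 64954 UMIs and all had a full mapping score, with atlas stages of 7.5 (2 cells), 7.75 (6) and 8.0 (1). Eomes, Cdx2 and Esrrb had no UMI in any of them, and Elf5 was found in 2, with 1 and 4 UMIs. Of the fixed markers Rhox5 (1031 CPM) and Tfap2c (259.6 CPM) remained. Rhox6 stood at 2316 CPM and Rhox9 at 1751 CPM, Phlda2 at 3745, Peg10 at 1139, Cdkn1c at 959 and Plac1 at 305. The cells were uneven. Of their 277 Cdkn1c UMIs 187 came from 1 cell of 44083 UMIs, and Plac1 ran from 0 UMIs in 3 cells to 33 in 1. Phlda2 UMIs ran from 15 to 215 and Rhox6 UMIs from 4 to 266. Gata2, Dlx3 and Ovol2, factors of the labyrinth and later trophoblast, stood at 128, 55.4 and 51.9 CPM.

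Bmp4 (3.46 CPM), Sox2 (10.4 CPM) and Dnmt3l (3.46 CPM) were low in these cells, and Wnt7b was at 10.4 CPM. Of the stem cell and chorion regulators Tfap2c, Gata2 and Gata3 were above both E7.5 sums. Of the later genes Ascl2 and Cited1 lay between the E7.5 sums. Gcm1 and Egfr had no UMI, where the 3 UMIs that a count of 0 allows stand for 10.4 CPM. Their E7.5 levels, 2.96 and 0.876 CPM (Gcm1) and 5.53 and 2.80 CPM (Egfr), were below that limit, so the absence shows no loss. The atlas used for the label ran from E7.5 to E9.5. Embryonic haemoglobin UMIs (Hbb-y, 457 CPM, and Hba-x, 270.0 CPM) were found in all 9 cells, and their part in the other values was not tested. Stage, library and sum of 9 cells cannot be told apart, and no test was made.

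**Figure D5:**
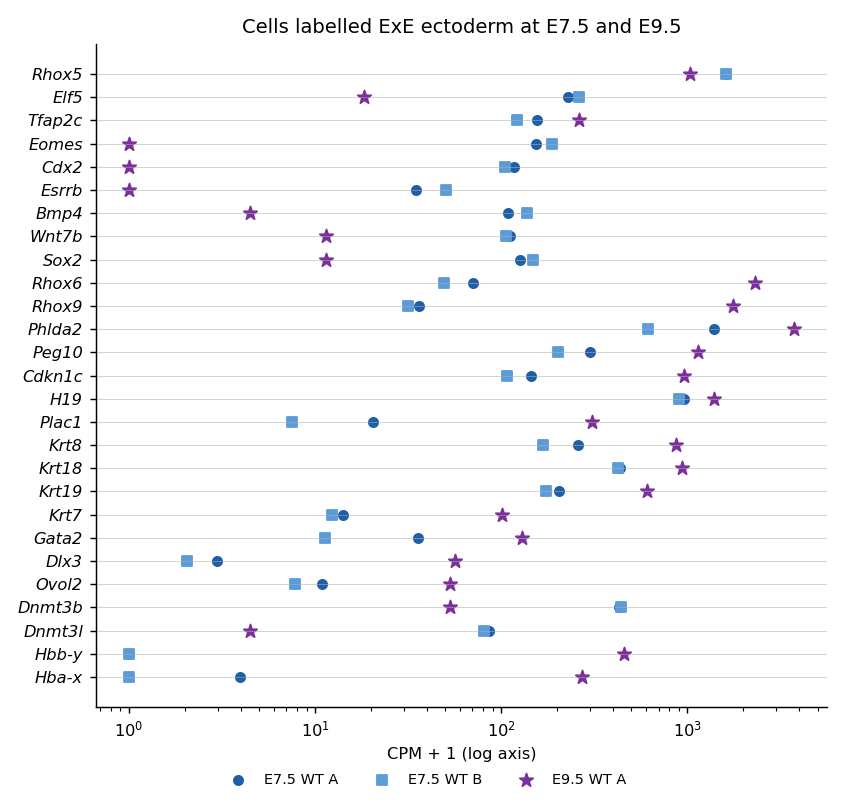
Levels of 27 genes (CPM + 1, log axis) in the summed cells labelled ExE ectoderm of E7.5 WT A (circles), E7.5 WT B (squares) and E9.5 WT A (stars). The stars lie at 0 CPM for Eomes, Cdx2 and Esrrb and right of both E7.5 points for Rhox6, Rhox9, Phlda2, Peg10, Cdkn1c and Plac1.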

How the data were processed

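Droplet libraries of sorted cells (3′ tags with UMIs) were mapped by the authors with Cell Ranger to mm10 and counted on a GRCm38 annotation with a tdTomato gene added. The deposited values are raw UMI counts per gene and cell, filtered by the authors on UMIs, genes, mitochondrial and ribosomal share. The deposited table of cells gives the label, atlas stage, doublet call (scds) and the mapping score, a fraction of the 25 nearest atlas cells. Doublet calls (3395 cells) and WT-sorted singlets with a tdTomato UMI (596) were left out. The deposited values pool all samples, so no column was matched to a single sample. Cells went to a stage and genotype by the stage and sort gate listed for each cell.

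Counts were summed per library and label (more than 15 cells) for CPM and for edgeR 4.0.16 (R 4.3.3) with filterByExpr, TMM, a robust quasi-likelihood fit and terms for label and library. The library term is a replicate block, since the labels compared came from the same libraries. DESeq2 1.42.0, other size factors, no filter, no block, leaving out each WT library (with Ectoderm and Epiblast of the null libraries added, the lone ExE ectoderm sum being assumed to vary like the other sums), thinning to 10000 UMIs per cell and other cell filters were alternatives, and keeping the 9-cell Epiblast sum was added after seeing the data. The fit was checked on simulated counts. Of 322 listed genes in 19 lists 316 were in the matrix. Named genes were the markers, list members with high levels, the 15 leading genes at each end by the least favourable ratio (Gm and Rik names left out), and the 10 highest and 10 lowest excluded genes called in both comparisons. The members and lists were chosen with earlier results of these data known. Gene positions are from GENCODE on GRCm38. Some items covered by these rules are not reported here.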

Additional observations from a re-analysis of the deposited data

Results flagged for a closer look

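The number of ExE ectoderm cells in E9.5 WT A stood apart from the other E9.5 WT libraries, with 9 cells against 0 in each of the other 3. With 0 in 3 libraries any cell in the fourth would have stood apart in this way, and some of these libraries share an embryo, so the mark carries no weight of its own. All 9 cells held Rhox6, Rhox9, Phlda2 and embryonic haemoglobin UMIs.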

How the results depend on the processing

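Excluded genes called against Epiblast numbered 180, and 58 by DESeq2 (7.10%, beside 9.73% of all genes, with 69 genes left without an adjusted p) and 72 with thinned cells (15.7% of the 458 fitted, beside 17.8%). Without the filter on low counts 169 of 2841 were called (5.95%, beside 15.4%). Against Ectoderm they numbered 228, and 95 by DESeq2 (11.6%, beside 16.4%), 94 with thinned cells (20.5%, beside 22.9%), 249 of 2841 without the filter (8.76%, beside 3688 of 18423) and 349 without the fold threshold (42.7%, beside 52.8%). Thinning raised the share of higher genes among the calls against Epiblast from 41.7% to 52.8%, and among all genes from 42.7% to 45.8%. Leaving out a WT library, in fits that also held Ectoderm and Epiblast of the null libraries, gave 83 to 173 calls against Epiblast and 137 to 184 against Ectoderm, the low values being without WT B. Without the replicate block, in place of the paired fit by library, 166 (20.3%, beside 22.4%) and 211 (25.8%, beside 27.8%) were called, and the imprinted counts were 28 and 28 of 54 (51.9%). Over all alternatives the imprinted counts lay between 22 and 34 against Epiblast and between 23 and 37 against Ectoderm, or 40.7% to 63.0% and 42.6% to 68.5% of those fitted, where the shares of all genes lay between 9.73% and 36.3% and between 16.4% and 52.8%. Of the 40 calls on the named excluded genes DESeq2 made 25 of 35 with an adjusted p, thinning 13 of 16 still fitted, and leaving out a library 12 of 26 (without WT B) to 35 of 36. Mest, at 0.23 against Epiblast and not called, gave 0.41 without WT A and -1.03 without WT B, where edgeR called it. Of the 15 leading lower genes 9 stayed with a pseudocount of 5 CPM and 9 with WT A alone, of the higher genes 10 and 11. Detection shares depend on depth: 49 of 54 unthinned shares lay outside the interval of the thinned share. Where alternatives differ, the cause was not tested.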

Other observations

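Plac1, an X-linked placental gene, was concentrated in a few cells, chosen here after its values were seen. Of the 281 ExE ectoderm cells at E7.5, 10 held a Plac1 UMI (WT A 4, WT B 6). There were 10 or more in 3 of them (WT A 2, WT B 1). These 3 cells had no Eomes, Cdx2 or Esrrb UMI. The 2 cells of WT A together read 3243 CPM of Krt8, 1588 CPM of Cdkn1c and 33.1 CPM of Morc4, where the 110 cells of that library without Plac1 read 199, 116 and 862 CPM. They were unlike in Phlda2 and Rhox6. The cell of 75996 UMIs held 216 Krt8, 120 Cdkn1c, 278 Phlda2 and 42 Rhox6 UMIs, and the cell of 14673 UMIs held 78, 24, 1 and 0. The cell of WT B read 894 CPM of Krt8, 617 CPM of Cdkn1c, 6381 CPM of Phlda2 and 61.7 CPM of Morc4, against 152, 97.6, 558 and 1094 CPM in 161 cells without Plac1. Hand1 went opposite ways. It read 1346 CPM in the 2 cells of WT A against 243 CPM without Plac1, and 0 in the cell of WT B against 108 CPM. Krt8 and Cdkn1c were also above their E7.5 level in the sum of the 9 cells of E9.5 WT A.

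The 15 leading genes of ExE ectoderm summed to 30.9 and 50.2 CPM in Ectoderm of WT A and WT B. These libraries held 114 and 167 ExE ectoderm cells, or 15.8% and 9.37% of their cells. The larger sum thus lay in the library with more ExE ectoderm cells but the smaller share of them. In Ectoderm of null A and null B, which held 2 and 0 such cells, the genes summed to 16.5 and 16.7 CPM. Rhox5 alone made up 8.38 and 17.0 CPM of the WT sums and 0.251 and 0.464 CPM of the null sums. Genotype and the number of ExE ectoderm cells cannot be told apart here.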
